A study of Homo sapiens with 24 samples.

Results

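The gene expression change that followed knockdown of TAOK2 in whole A549 cells was described from 6 of the 24 libraries of the series, 3 of cells that received siRNA against TAOK2 and 3 of cells that received control siRNA. These libraries were taken by their treatment label and by their experiment, and no measured value entered the choice. A549 is an established line of human lung adenocarcinoma epithelium, and every library carried the genotype label WT. The TAOK2 group received a commercial pool of siRNAs against TAOK2 and the control group a non-targeting pool, each at 30 nM by reverse transfection with a lipid reagent, in high-glucose medium with serum and antibiotics. Both groups therefore share the transfection and differ in the siRNA. The titles of all 6 libraries carry the word mock, whose meaning the labels do not give, and no time from transfection to harvest is given in the sources used here. The other 6 whole-cell libraries were treated with the TAOK2 kinase inhibitor compound 2 or with DMSO, and 12 further libraries hold total, nuclear and cytoplasmic RNA of cells with TAOK2 or control siRNA.

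TAOK2 is a serine/threonine kinase of the STE20 family. It acts high in stress kinase cascades, where it phosphorylates MAP2K3 and MAP2K6, the kinases that activate p38, and it has also been placed upstream of JNK. Its long form sits in the membrane of the endoplasmic reticulum and binds microtubules. An siRNA pool lowers the mRNA and with it any function of the protein, whereas an inhibitor leaves the protein in place.

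Polyadenylated RNA was sequenced as paired reads of 150 bp, and transcript abundances were deposited in TPM, a length-corrected share of all transcripts of a library, and summed here to genes. Every library adds up to the same total, so a larger share of some RNAs lowers all others. A minimum of 100 M reads per library is stated in the labels' protocols. Read totals are not kept, so the depth of each library above that minimum is unknown. Each group has 1 library in each of batches A, B and C. Transfections were done in triplicate, and nothing states that these were separate cultures, so p-values measure only the spread between these samples, which may be technical. On log2(TPM + 1), libraries of the TAOK2 siRNA group correlated at 0.992 to 0.994 and those of the control group at 0.992 to 0.997, against 0.979 to 0.987 between groups. Between any pair of libraries of the same group 21 to 113 genes were at least 2-fold apart, and between pairs across the groups 125 to 364 genes were.

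The targeted mRNA was lower in every library with TAOK2 siRNA. TAOK2 had 10.6, 12.5 and 8.56 TPM in batches A, B and C with TAOK2 siRNA, against 40.3, 38.2 and 34.3 TPM with control siRNA. The log2 change was -1.75 ± 0.15 (SE), at an adjusted p of 2.32e-05 by limma with Benjamini-Hochberg adjustment, which is the test behind every adjusted p below. The gene lies at chr16:29973641-29992261, plus strand (GRCh38). STC1, EMP1 and RAB1B are given for their large changes in these libraries, so their values describe the knockdown and do not test it. The secreted hormone STC1 had 26.4, 42.5 and 38.1 TPM with TAOK2 siRNA, against 6.23, 5.83 and 9.66 TPM with control siRNA, and the membrane protein EMP1 had 80.3, 76.2 and 83.1 TPM, against 26.1, 21.9 and 28.3 TPM. RAB1B, a GTPase of the early secretory pathway, had 42.4, 38.4 and 39 TPM with TAOK2 siRNA, against 209.9, 206 and 183 TPM with control siRNA. No value of either group overlapped the other in any of these 4 genes, as in 6250 of all genes tested (47.7%).

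Of 13106 genes whose mean reached 1 TPM, 2905 (22.2%) passed an adjusted p of 0.05. With TAOK2 siRNA 1020 genes were higher (7.78% of those tested) and 1885 were lower (14.4%), and after centring each library on its median the split was 1301 higher and 1385 lower. Most of these changes were small, since 1898 of the called genes (65.3%) changed by less than 0.5 on the log2 scale. The median was 0.46 among genes called higher, -0.40 among those called lower and -0.05 over all genes tested. At least 2-fold changes were found for 52 genes higher (0.397%) and 61 genes lower (0.465%). Genes called higher held 161510.0 ± 2998 TPM with TAOK2 siRNA and 129364 ± 2412 TPM with control siRNA (sum, mean ± SD, n = 3 each), and genes called lower held 114161 ± 2764 and 153209 ± 1941 TPM. Without the batch B library of TAOK2 siRNA the counts were 586 higher and 1092 lower, without the batch A control library 1134 were lower, and without the batch B control library 605 were higher and 1247 lower.

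**Figure D1:**
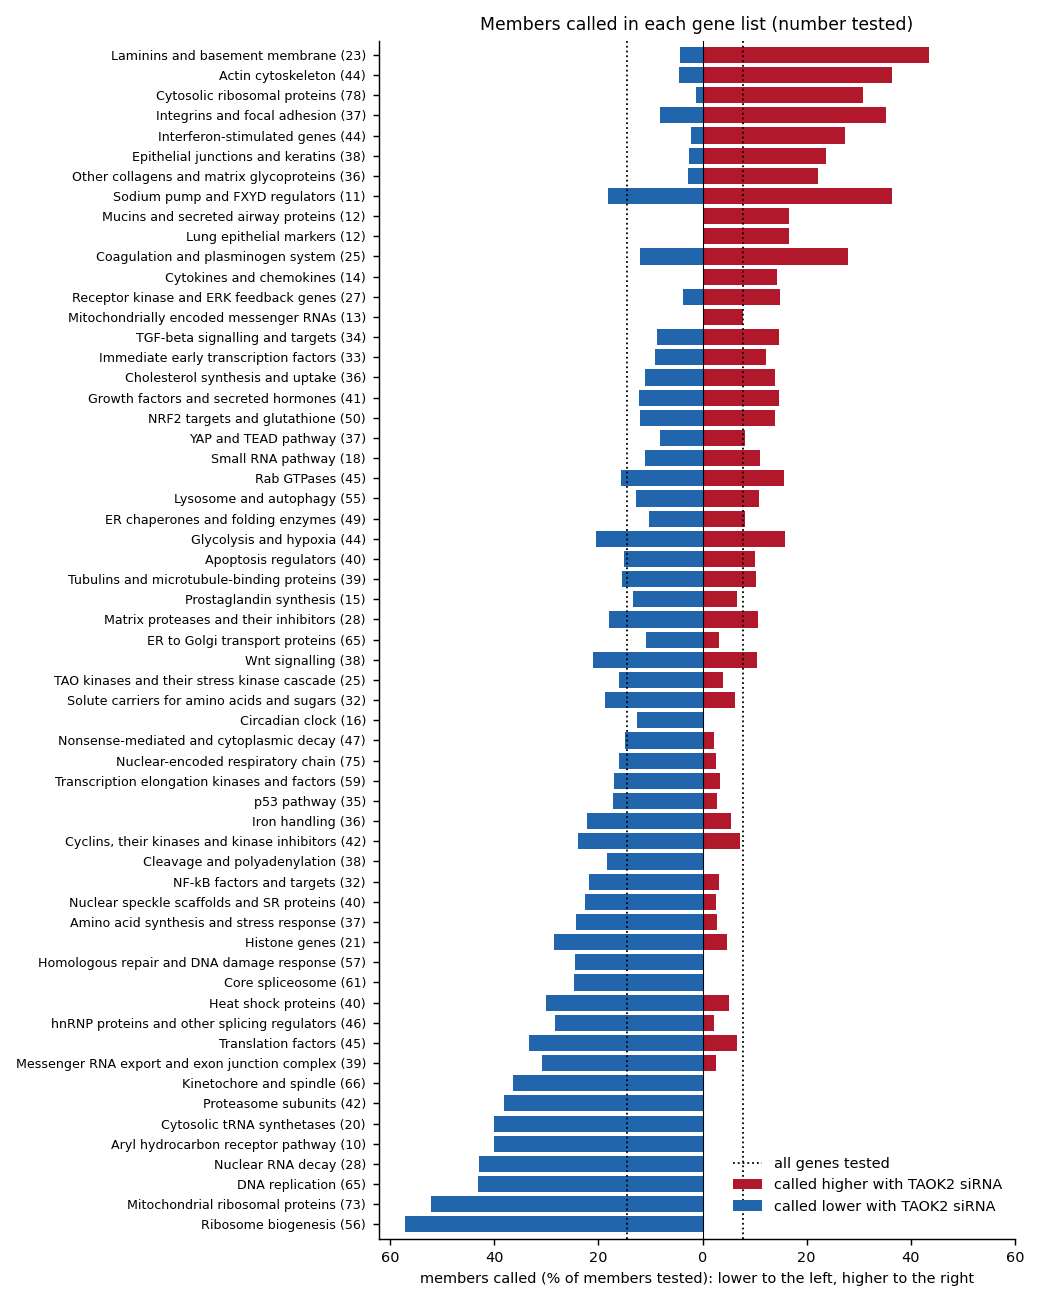
Percent of the tested members of each gene list that were called higher (bars to the right) or lower (bars to the left) with TAOK2 siRNA than with control siRNA, at an adjusted p of 0.05, for lists with at least 10 tested members. The dotted lines stand at 7.78% higher and 14.4% lower, the shares over all 13106 genes; adhesion, actin and interferon lists lie mostly to the right, and ribosome assembly, mitochondrial ribosome and cell division lists to the left.

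Of 25 tested TAO kinases and members of their stress kinase cascade 1 was higher and 4 were lower (4% and 16%), shares near those of all genes tested (7.78% and 14.4%), the lower ones including TAOK2 itself, and the list's median log2 change was 0.13. MAP2K4, a kinase that activates JNK and p38, had 18.6, 18.4 and 21.5 TPM with TAOK2 siRNA, against 34.8, 36.7 and 41.2 TPM with control siRNA (-0.91 ± 0.09, adjusted p = 6.22e-05). MAPK14, which encodes p38 alpha, fell to 15 ± 0.810 TPM with TAOK2 siRNA, against 22.2 ± 0.482 TPM with control siRNA (mean ± SD, n = 3 each), a log2 change of -0.54 ± 0.09 (adjusted p = 0.00129). MAP3K5, the stress kinase ASK1, rose to 5.70 ± 0.449 TPM with TAOK2 siRNA, against 3.60 ± 0.316 TPM with control siRNA, a log2 change of 0.54 ± 0.10 (adjusted p = 0.00306). Among 27 tested receptor kinase and ERK feedback genes 4 were higher and 1 was lower (14.8% and 3.70%). DUSP5, a phosphatase that inactivates ERK, had 96.4, 92.8 and 102 TPM with TAOK2 siRNA, against 50.9, 42.9 and 64 TPM with control siRNA (0.89 ± 0.18, adjusted p = 0.00482).

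Among called genes of the basement membrane, of cell adhesion and of the actin cytoskeleton, most were higher with TAOK2 siRNA. Of 23 tested laminins and basement membrane genes 10 were higher and 1 was lower (43.5% and 4.35%), with a median log2 change of 0.39, and of 37 integrin and focal adhesion genes 13 were higher and 3 lower (35.1% and 8.11%), with a median of 0.25. Of 44 actin cytoskeleton genes 16 were higher and 2 lower (36.4% and 4.55%), with a median of 0.22. Of 36 other collagens and matrix glycoproteins 8 were higher and 1 lower (22.2% and 2.78%). When each library was left out in turn, 5, 6, 12 and 6 of these rises kept their call in every round, in the order of the lists above. Matrix proteases and their inhibitors were mixed, with 3 of 28 tested higher and 5 lower (10.7% and 17.9%, against 7.78% and 14.4% of all genes tested).

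NID2 (nidogen 2), which links laminin and collagen IV networks, had 6.98, 8.86 and 8.74 TPM with TAOK2 siRNA, against 1.25, 1.19 and 1.28 TPM with control siRNA. Its log2 change was 2.03 ± 0.19 (adjusted p = 3.60e-05), and its lowest library with TAOK2 siRNA was several times the highest control library. LAMB3, a chain of the laminin of epithelial anchoring structures, had 33.7, 37.7 and 32.9 TPM with TAOK2 siRNA, against 12, 11.8 and 12.3 TPM with control siRNA (1.46 ± 0.12, adjusted p = 1.44e-05). The collagen IV chains COL4A5 and COL4A6, whose genes lie head to head on the X chromosome, both rose. COL4A5 had 82.8, 84.4 and 81.5 TPM with TAOK2 siRNA, against 56.9, 58.3 and 50.8 TPM with control siRNA (0.58 ± 0.07, adjusted p = 0.000174). COL4A6 had 78.5, 73.6 and 73.7 TPM with TAOK2 siRNA, against 58.2, 51.8 and 53.9 TPM with control siRNA (0.46 ± 0.08, adjusted p = 0.00215). The other head-to-head pair, COL4A3 and COL4A4 on chromosome 2, was expressed at a lower level and also rose. COL4A3 had 7.76, 11.6 and 5.19 TPM with TAOK2 siRNA, against 4.06, 3.27 and 2.15 TPM with control siRNA (1.11 ± 0.30, adjusted p = 0.0219), and its call was lost without the TAOK2 siRNA library of batch A or B and without the control library of batch B or C, where the adjusted p reached 0.0903. COL4A4 had 7.44, 9.67 and 6.29 TPM, against 4.25, 3.04 and 2.33 TPM (1.07 ± 0.26, adjusted p = 0.0126), with an adjusted p of 0.0582 without the batch B library of TAOK2 siRNA.

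Most called genes among the other collagens and matrix glycoproteins were also higher. OLFML3, the 1 that fell, had 5.31, 2.46 and 3.99 TPM with TAOK2 siRNA, against 16.7, 15.8 and 9.56 TPM with control siRNA (-1.61 ± 0.43, adjusted p = 0.0226). Its call was lost without the TAOK2 siRNA library of batch B or C or the control library of batch A or B, where the adjusted p reached 0.0874. COL5A2, a chain of fibrillar collagen V, had 117, 140.0 and 119.6 TPM with TAOK2 siRNA, against 73.9, 73.2 and 66.9 TPM with control siRNA (0.80 ± 0.08, adjusted p = 6.15e-05). LTBP1, which holds latent TGF-beta in the matrix, had 30.8, 38.2 and 34.8 TPM with TAOK2 siRNA, against 19, 17.2 and 19.1 TPM with control siRNA (0.87 ± 0.09, adjusted p = 7.93e-05). SPP1 (osteopontin), a ligand of integrins, was tightly grouped at 249.5, 249 and 248 TPM with TAOK2 siRNA, against 148, 149 and 136 TPM with control siRNA (0.78 ± 0.13, adjusted p = 0.00207). HAS2, the synthase of the matrix polysaccharide hyaluronan, had 31.2, 28.3 and 30.6 TPM with TAOK2 siRNA, against 12.6, 13.1 and 12.7 TPM with control siRNA (1.17 ± 0.11, adjusted p = 4.34e-05). CCN3, a matricellular protein, was nearly silent in control cells, with 3.83, 4.30 and 3.58 TPM with TAOK2 siRNA, against 0.792, 0.754 and 0.906 TPM with control siRNA (1.43 ± 0.12, adjusted p = 1.90e-05).

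Among integrins the most abundant chain went the other way. ITGB1, the beta 1 chain that pairs with most alpha chains, had 627, 772 and 735 TPM with TAOK2 siRNA, against 1172, 1218 and 1273 TPM with control siRNA (-0.78 ± 0.07, adjusted p = 2.61e-05). ITGB8, a beta chain that binds latent TGF-beta, had 3.48, 3.74 and 3.16 TPM with TAOK2 siRNA, against 2.03, 2.00 and 1.91 TPM with control siRNA (0.58 ± 0.13, adjusted p = 0.00700). TNS4, a focal adhesion adaptor, averaged 63.5 ± 2.68 TPM with TAOK2 siRNA and 37.3 ± 2.53 TPM with control siRNA (SD, n = 3 each), a log2 change of 0.75 ± 0.15 (adjusted p = 0.00490).

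Abundant actin-binding genes were among the 16 called higher. TPM4, a tropomyosin that coats actin filaments, had 633, 689.5 and 696 TPM with TAOK2 siRNA, against 431, 453 and 473 TPM with control siRNA (0.57 ± 0.05, adjusted p = 2.97e-05). TMSB10, which binds actin monomers, had 3838, 4085 and 3858 TPM with TAOK2 siRNA, against 2701, 2739.9 and 2869 TPM with control siRNA (0.50 ± 0.06, adjusted p = 0.000223). ARPC5, a subunit of the Arp2/3 complex, had 349, 392 and 353 TPM with TAOK2 siRNA, against 266, 254 and 243 TPM with control siRNA (0.52 ± 0.07, adjusted p = 0.000290). RFLNB, a filamin-binding protein, was an exception, with 2.48, 2.17 and 2.31 TPM with TAOK2 siRNA, against 9.96, 9.69 and 9.08 TPM with control siRNA (-1.67 ± 0.12, adjusted p = 5.42e-06). Summed over the actin list, libraries with TAOK2 siRNA held 28342 to 31169 TPM and control libraries 24554 to 25383 TPM.

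**Figure D2:**
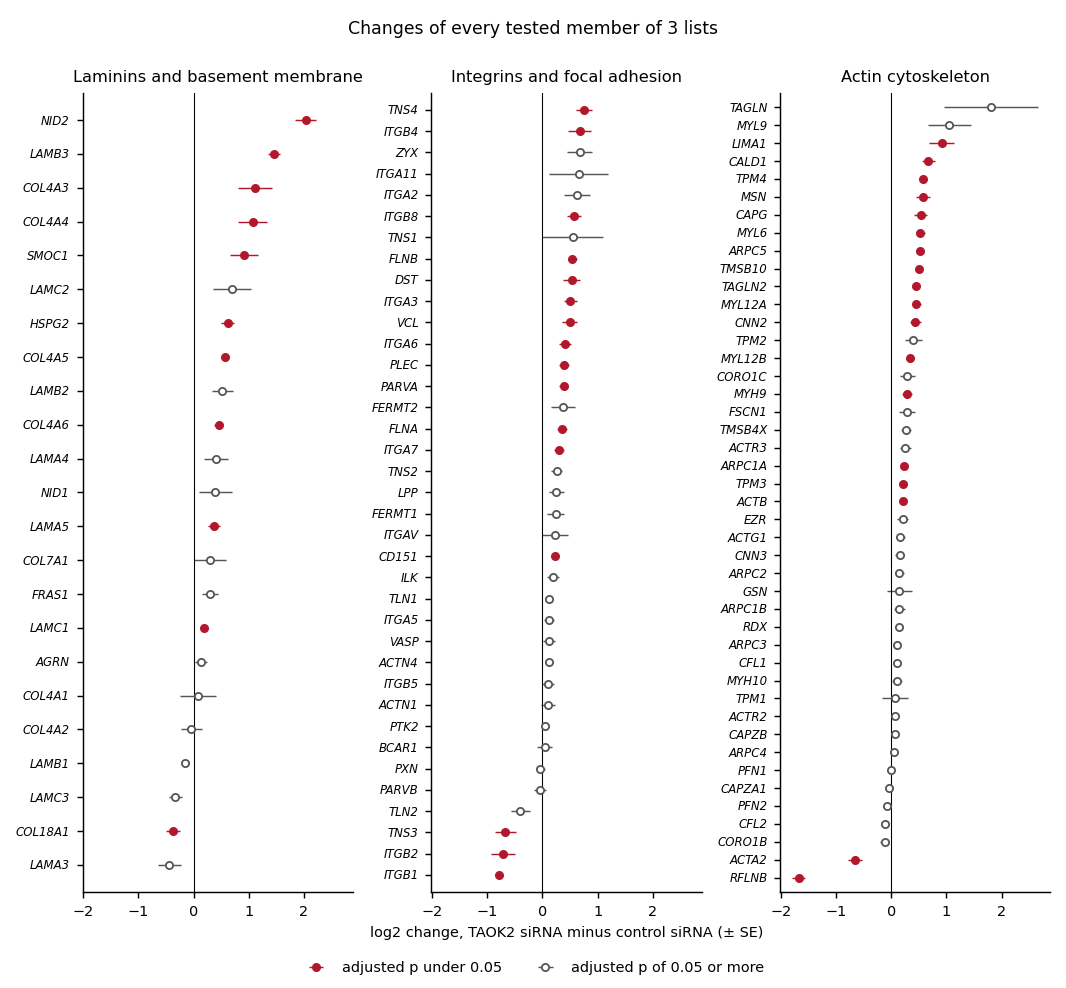
Log2 change (TAOK2 siRNA minus control siRNA, on log2(TPM + 1)) of every tested member of the basement membrane, integrin and focal adhesion, and actin lists, with bars for the SE and filled points for genes past an adjusted p of 0.05. Most members lie to the right of 0, NID2 at 2.03 is the farthest, and ITGB1 at -0.78 and RFLNB at -1.67 lie to the left.

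Of 38 tested genes of epithelial junctions and keratins 9 were higher and 1 was lower (23.7% and 2.63%, against 7.78% and 14.4% of all genes tested). With batch as a replicate block 15 were higher and 2 lower. KRT19, a keratin of simple epithelia at chr17:41523617-41528308, minus strand, had 251, 287 and 255 TPM with TAOK2 siRNA, against 115, 113 and 124 TPM with control siRNA (1.16 ± 0.09, adjusted p = 1.42e-05). DSG2, a desmosomal cadherin, averaged 89.8 ± 1.71 TPM with TAOK2 siRNA and 56.7 ± 0.787 TPM with control siRNA (SD, n = 3 each), a log2 change of 0.65 ± 0.09 (adjusted p = 0.000701). CLDN3, a tight junction claudin, was the 1 that fell, to 5.07, 3.56 and 3.77 TPM with TAOK2 siRNA, against 9.74, 8.49 and 6.86 TPM with control siRNA (-0.87 ± 0.19, adjusted p = 0.00679). Of 12 tested mucins and secreted airway proteins 2 were higher (16.7%) and none was lower by limma (0 at an unadjusted p under 0.05). The membrane mucin MUC13 had 15.9, 17.1 and 16.6 TPM with TAOK2 siRNA, against 8.53, 8.82 and 9.22 TPM with control siRNA (0.83 ± 0.10, adjusted p = 0.000204), and MUC3A had 9.85, 12.6 and 10.4 TPM, against 3.66, 3.93 and 4.45 TPM (1.25 ± 0.15, adjusted p = 0.000221).

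Among called interferon-stimulated genes, most were also higher. Of 44 tested members 12 rose and 1 fell (27.3% and 2.27%), with a median log2 change of 0.19, and 6 of the rises kept their call whichever library was left out. The promoters of SAMD9 and GBP3, members of this list, are shown because both hold the interferon-stimulated response element, the site that interferon-activated STAT and IRF complexes bind. The letters searched were GAAA followed, after any 2 bases, by GAAA again, on either strand, in windows of 250 bases before to 50 after the start of the gene from RefSeq (GRCh38.p14), and capitals mark the match. Such a match lies in 21 of the 34 list members with a promoter in that table (61.8%), in 7 of the 10 of these that were called, and in 993 of all 27195 promoters (3.65%). The SAMD9 window is chr7:93117930-93118229 and the GBP3 window is chr1:89022817-89023116, both on the minus strand.
SAMD9: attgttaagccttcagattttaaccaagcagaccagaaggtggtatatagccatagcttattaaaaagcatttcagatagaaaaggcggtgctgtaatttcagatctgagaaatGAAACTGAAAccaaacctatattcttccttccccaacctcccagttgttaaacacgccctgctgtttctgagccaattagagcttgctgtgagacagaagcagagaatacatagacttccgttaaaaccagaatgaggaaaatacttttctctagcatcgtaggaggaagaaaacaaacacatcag
GBP3: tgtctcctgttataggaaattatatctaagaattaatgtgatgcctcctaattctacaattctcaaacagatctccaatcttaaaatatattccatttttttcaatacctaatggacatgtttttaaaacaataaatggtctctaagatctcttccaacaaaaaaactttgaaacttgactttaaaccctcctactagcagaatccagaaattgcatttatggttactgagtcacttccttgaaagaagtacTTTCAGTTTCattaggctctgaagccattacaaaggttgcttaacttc
A match is a description of these letters only.

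SAMD9, an antiviral restriction factor, had 2.71, 4.47 and 4.87 TPM with TAOK2 siRNA, against 0.982, 1.06 and 1.32 TPM with control siRNA (1.22 ± 0.16, adjusted p = 0.000428). GBP3, a guanylate-binding GTPase, had 3.44, 6.14 and 4.82 TPM with TAOK2 siRNA, against 1.06, 1.29 and 1.61 TPM with control siRNA (1.30 ± 0.18, adjusted p = 0.000459), and its relative GBP2 averaged 2.09 ± 0.178 TPM and 1.04 ± 0.165 TPM in these groups (SD, n = 3 each; 0.60 ± 0.12, adjusted p = 0.00435). OAS1, which makes the oligoadenylates that activate RNase L, had 49.1, 46 and 39.7 TPM with TAOK2 siRNA, against 22, 19.2 and 15.1 TPM with control siRNA (1.23 ± 0.25, adjusted p = 0.00538). CASP4, the inflammatory caspase that senses bacterial lipopolysaccharide in the cytosol, lies at chr11:104942866-104969436, minus strand. It had 20.1, 23.6 and 19.7 TPM with TAOK2 siRNA, against 8.52, 9.23 and 7.33 TPM with control siRNA (1.24 ± 0.12, adjusted p = 3.43e-05).

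Among called NF-kB genes most were lower, as among all called genes (1885 of 2905). Of 32 tested factors and targets 1 was higher and 7 were lower (3.1% and 21.9%, against 7.78% and 14.4% of all genes tested). The median log2 change was -0.18, and in total RNA of the fractionation experiment 18 of 29 members lay above 0. The adaptor TRAF2 had 39.4, 39.6 and 42.1 TPM with TAOK2 siRNA, against 69.7, 64 and 65.4 TPM with control siRNA (-0.70 ± 0.12, adjusted p = 0.00183), and the NF-kB subunit RELB had 33.9, 35.8 and 45.2 TPM, against 64.9, 59.2 and 65.5 TPM (-0.72 ± 0.15, adjusted p = 0.00647). Of 14 tested cytokines and chemokines 2 were higher (14.3%, against 7.78% of all genes tested) and none was lower by limma (0 at an unadjusted p under 0.05). IL18, 1 of the 2, had 123, 155 and 140.1 TPM with TAOK2 siRNA, against 83.9, 83.2 and 98.5 TPM with control siRNA (0.65 ± 0.13, adjusted p = 0.00435).

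Among called genes of DNA replication and cell division, most were lower in whole cells with TAOK2 siRNA. Of 65 tested DNA replication genes 28 were lower (43.1%), of 66 kinetochore and spindle genes 24 (36.4%), and of 57 genes of homologous repair and the DNA damage response 14 (24.6%), with none called higher by limma in the 3 lists, where 1, 0 and 0 were higher at an unadjusted p under 0.05. Their median log2 changes were -0.22, -0.23 and -0.13. Of 42 cyclins, their kinases and inhibitors 3 were higher and 10 lower (7.14% and 23.8%, against 7.78% and 14.4% of all genes tested). In every round with 1 library left out 18, 15, 7 and 9 of these falls kept their call. Promoters of GINS2 and SKA3 are shown for the sites that typify the S-phase and mitotic programmes of the cell cycle. TTTCCCGC on either strand, a site of E2F factors, lies in 12 of 57 promoters of DNA replication genes (21.1%), in 6 of the 25 called, and in 453 of all 27195 (1.67%). TTTGAA on either strand, the core of the cell cycle homology region, lies in 35 of 57 promoters of kinetochore and spindle genes (61.4%), in 13 of the 20 called, and in 4191 of all (15.4%). The windows are chr16:85688905-85689204 for GINS2 and chr13:21176503-21176802 for SKA3, both on the minus strand, with the match in capitals.
GINS2: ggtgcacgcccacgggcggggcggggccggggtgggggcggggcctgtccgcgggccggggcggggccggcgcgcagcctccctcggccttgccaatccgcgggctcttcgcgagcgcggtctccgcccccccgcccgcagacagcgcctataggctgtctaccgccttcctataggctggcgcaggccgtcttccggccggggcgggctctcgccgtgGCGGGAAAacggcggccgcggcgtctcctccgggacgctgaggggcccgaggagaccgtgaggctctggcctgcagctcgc
SKA3: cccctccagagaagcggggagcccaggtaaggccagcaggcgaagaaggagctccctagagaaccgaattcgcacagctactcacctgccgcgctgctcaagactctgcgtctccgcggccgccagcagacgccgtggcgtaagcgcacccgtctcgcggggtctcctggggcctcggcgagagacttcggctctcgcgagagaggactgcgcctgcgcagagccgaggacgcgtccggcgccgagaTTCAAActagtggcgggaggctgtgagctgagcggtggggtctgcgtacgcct
The share of called members with either match was close to that of all members of its list.

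GINS2, a subunit of the replicative helicase complex, had 14.9, 14.7 and 17 TPM with TAOK2 siRNA, against 35.7, 36.4 and 34.3 TPM with control siRNA (-1.14 ± 0.07, adjusted p = 1.81e-06). SKA3, of the complex that couples kinetochores to microtubules, had 13.5, 13.5 and 13.6 TPM with TAOK2 siRNA, against 18.7, 19 and 18.3 TPM with control siRNA (-0.44 ± 0.08, adjusted p = 0.00266). TFDP1, the partner that E2F factors need to bind DNA, had 38.1, 36.2 and 35.3 TPM with TAOK2 siRNA, against 79, 76.2 and 78.6 TPM with control siRNA (-1.07 ± 0.06, adjusted p = 1.81e-06). Libraries of the same group lay close together in each of these genes. CCNE1, the cyclin that drives entry into S phase, lies at chr19:29811898-29824308, plus strand and had 5.99, 7.58 and 7.34 TPM with TAOK2 siRNA, against 17.7, 16.8 and 20.1 TPM with control siRNA (-1.27 ± 0.16, adjusted p = 0.000234). CCNA2, the cyclin of S and G2 phases, had 24.8, 30 and 29.4 TPM with TAOK2 siRNA, against 55.5, 54 and 58.2 TPM with control siRNA (-0.97 ± 0.09, adjusted p = 2.98e-05). KIF2C, a mitotic kinesin that depolymerises microtubules, had 27.3, 27.4 and 27.6 TPM with TAOK2 siRNA, against 45.1, 44.1 and 45.5 TPM with control siRNA (-0.69 ± 0.09, adjusted p = 0.000277). BIRC5 (survivin), of the chromosomal passenger complex, had 106, 105 and 106 TPM with TAOK2 siRNA, against 154, 142 and 143 TPM with control siRNA (-0.46 ± 0.05, adjusted p = 0.000154). Less RNA per cell and fewer cells in S phase or mitosis cannot be told apart in bulk RNA, here or in any group below.

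The direction of the cell division genes was not the same in the second knockdown experiment. In total RNA of the fractionation experiment, from other cells with the same siRNA labels and 2 libraries per group, 63 of the 66 kinetochore and spindle genes lay above 0 (median log2 difference 0.66), and of the 24 called lower in whole cells 1 lay below 0. Of the 65 DNA replication genes 58 lay above 0 (median 0.48), and of the 28 called lower in whole cells 3 lay below 0. BIRC5 had 33.7 and 33.9 TPM with TAOK2 siRNA, against 17.1 and 18.9 TPM with control siRNA in total RNA, and CCNA2 had 17.2 and 24.9 TPM, against 9.83 and 14.2 TPM. GINS2 had 7.57 and 7.94 TPM with TAOK2 siRNA, against 4.08 and 5.30 TPM with control siRNA. The targeted mRNA itself was lower there too, with TAOK2 at 3.67 and 2.99 TPM with TAOK2 siRNA, against 9.70 and 5.01 TPM with control siRNA, but its log2 change of -0.89 ± 0.47 was smaller than in whole cells and did not pass the test (adjusted p = 0.880). The sample labels of both experiments were taken as given. The tables were normalized separately, no gene passed limma's adjusted p in total RNA, and the difference between the experiments was not tested.

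Most genes that build ribosomes were called lower, and 1 ribosomal protein of the cytosol was. Of 56 tested ribosome biogenesis genes 32 were lower (57.1%) and none was higher by limma (0 at an unadjusted p under 0.05), with a median log2 change of -0.32, and 24 of these kept their call whichever library was left out. NOP14, of the complex that processes the small subunit RNA, had 29.9, 27.7 and 30 TPM with TAOK2 siRNA, against 53.7, 54.4 and 54.4 TPM with control siRNA (-0.87 ± 0.07, adjusted p = 9.95e-06). NCL (nucleolin), a main protein of the nucleolus, had 340.4, 358 and 363 TPM with TAOK2 siRNA, against 508, 532 and 553 TPM with control siRNA (-0.58 ± 0.07, adjusted p = 0.000129). DDX21, a nucleolar RNA helicase, averaged 94.3 ± 9.18 TPM with TAOK2 siRNA and 159.7 ± 9.98 TPM with control siRNA (SD, n = 3 each), a log2 change of -0.76 ± 0.08 (adjusted p = 7.24e-05). Of 78 cytosolic ribosomal proteins 24 were higher and 1 was lower (30.8% and 1.28%), with a median of 0.17, and with batch as a replicate block 42 were higher and 1 lower. Leaving out 1 library at a time left 9 of the 24 rises called in every round, and after median centring 17 were higher. RPS3 averaged 3379.9 ± 73.7 TPM with TAOK2 siRNA and 2753 ± 97.8 TPM with control siRNA (SD, n = 3 each), a log2 change of 0.30 ± 0.04 (adjusted p = 0.000719), and RPL13A had 6938, 6894 and 6603 TPM, against 5698, 5585 and 5408 TPM (0.29 ± 0.05, adjusted p = 0.00203). Ribosomal protein genes have many near-identical pseudogene copies, so the split of reads among copies makes their levels uncertain.

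Lists of translation, mitochondrial ribosomes and the proteasome held more falls than rises, but many of these falls depended on the scaling. After median centring 10.6% of all genes tested were lower, and after GC centring 9.87%. Of 73 mitochondrial ribosomal proteins 38 were lower (52.1%) and none was higher by limma, nor at an unadjusted p under 0.05 (0 genes; median -0.21), though median centring left 22 (30.1%) and GC centring 18 (24.7%) lower. MRPL12 had 163, 147 and 163 TPM with TAOK2 siRNA, against 232, 216 and 249.5 TPM with control siRNA (-0.56 ± 0.06, adjusted p = 0.000102), and MRPS23 had 102, 102 and 105 TPM, against 142, 151 and 149 TPM (-0.51 ± 0.05, adjusted p = 6.81e-05). Of 45 translation factors 3 were higher and 15 lower, against 3 and 5 (11.1% lower) after median centring and 1 and 7 (15.6% lower) after GC centring. EIF4G2, which supports translation without a cap-binding partner, had 485, 499.9 and 504 TPM with TAOK2 siRNA, against 853, 785 and 811 TPM with control siRNA (-0.72 ± 0.06, adjusted p = 1.47e-05). EIF5A, which relieves stalled ribosomes, had 1353, 1275 and 1435 TPM with TAOK2 siRNA, against 1761, 1748 and 1809.9 TPM with control siRNA (-0.39 ± 0.05, adjusted p = 0.000414). Of 20 cytosolic tRNA synthetases 8 were lower (40%) and none was higher by limma (0 at an unadjusted p under 0.05). These falls changed little with the scaling, since median centring and GC centring each left 7 (35%) lower. AARS1, 1 of the 8, had 276, 236 and 272 TPM with TAOK2 siRNA, against 393, 387 and 359 TPM with control siRNA (-0.54 ± 0.08, adjusted p = 0.000635). Of 37 genes of amino acid synthesis and the amino acid stress response 1 was higher and 9 were lower (2.70% and 24.3%, against 7.78% and 14.4% of all genes tested). After median centring 10 (27%) were lower, and after GC centring 9 (24.3%). PYCR1, which makes proline, averaged 80.5 ± 8.29 TPM with TAOK2 siRNA and 154 ± 7.73 TPM with control siRNA (SD, n = 3 each), a log2 change of -0.94 ± 0.07 (adjusted p = 1.44e-05).

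Of 42 proteasome subunits 16 were lower and none was higher by limma (0 at an unadjusted p under 0.05), with 6 (14.3%) lower after median centring and 5 (11.9%) after GC centring, near the shares of all genes. Of 75 nuclear-encoded respiratory chain genes 2 were higher and 12 lower (2.67% and 16%). Here the balance depended on the scaling, with 4 higher and 3 lower after median centring and 2 and 3 after GC centring. ATP5F1A, the alpha subunit of ATP synthase, had 229, 216 and 212 TPM with TAOK2 siRNA, against 285, 293 and 281 TPM with control siRNA (-0.38 ± 0.06, adjusted p = 0.000654). Of 13 mRNAs encoded in mitochondria only MT-ND1 passed the test, at 6191, 6079 and 6109 TPM with TAOK2 siRNA, against 5109.6, 5309 and 4969 TPM with control siRNA (0.26 ± 0.06, adjusted p = 0.00958). Of 40 heat shock proteins 2 were higher and 12 lower (5% and 30%, against 7.78% and 14.4% of all genes tested). The lower ones included the cytosolic chaperonin subunit CCT2 at 211, 238 and 245 TPM with TAOK2 siRNA, against 334, 359 and 379 TPM with control siRNA (-0.62 ± 0.08, adjusted p = 0.000253).

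In lists of nuclear RNA processing more genes were called lower than higher, as over all genes tested (14.4% and 7.78%). In total RNA of the fractionation experiment 11 of 28 nuclear decay, 19 of 39 export and 27 of 61 spliceosome genes lay above 0. So did 36 of 46 hnRNP and splicing regulator, 28 of 40 speckle and SR, and 22 of 38 cleavage genes. Of 28 nuclear RNA decay genes 12 were lower (42.9%), of 39 genes of mRNA export and the exon junction complex 12 were lower and 1 higher, and of 61 core spliceosome genes 15 were lower (24.6%). After median centring 8, 10 and 8 (13.1%) of these were lower, against 10.6% of all genes. DIS3, the nuclease of the RNA exosome at chr13:72752169-72782096, minus strand, had 12.6, 11.9 and 12.5 TPM with TAOK2 siRNA, against 34.7, 28.7 and 30 TPM with control siRNA (-1.26 ± 0.11, adjusted p = 2.65e-05). FYTTD1, an adaptor that hands mRNA to the export receptor, had 13.5, 14.4 and 13.6 TPM with TAOK2 siRNA, against 33.1, 35.1 and 35.2 TPM with control siRNA (-1.26 ± 0.08, adjusted p = 1.81e-06). DDX39A, a helicase of mRNA export, had 87.1, 80.5 and 78.8 TPM with TAOK2 siRNA, against 147, 146 and 129.7 TPM with control siRNA (-0.77 ± 0.07, adjusted p = 2.65e-05). Of 40 nuclear speckle scaffolds and SR proteins 1 was higher and 9 were lower, against 2 and 6 (15% lower) after median centring. The kinases that phosphorylate SR proteins split. SRPK2 had 20.1, 21.5 and 20.6 TPM with TAOK2 siRNA, against 44.3, 45.3 and 40.3 TPM with control siRNA (-1.03 ± 0.10, adjusted p = 3.86e-05). SRPK1 had 37.9, 35.1 and 40.2 TPM with TAOK2 siRNA, against 27.9, 28.5 and 32.8 TPM with control siRNA (0.34 ± 0.09, adjusted p = 0.0169), and lost its call without the batch C library of TAOK2 siRNA and without the control library of batch A or B, where the adjusted p reached 0.0730. Of 46 hnRNP proteins and other splicing regulators 1 was higher and 13 were lower, against 2 and 7 (15.2% lower) after median centring, and MATR3, a nuclear matrix RNA-binding protein, fell to 77.6, 93.9 and 91.5 TPM with TAOK2 siRNA, against 129, 133 and 144 TPM with control siRNA (-0.63 ± 0.08, adjusted p = 0.000310). Of 38 cleavage and polyadenylation genes 7 were lower (18.4%), and of 47 genes of nonsense-mediated and cytoplasmic decay 1 was higher and 7 were lower (14.9%), shares near the 14.4% of all genes. TOB1, which recruits the CCR4-NOT deadenylase, had 36.2, 26.3 and 30.5 TPM with TAOK2 siRNA, against 82.3, 79.1 and 65.5 TPM with control siRNA (-1.26 ± 0.18, adjusted p = 0.000792).

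No transcript class passed a test of its share of TPM. Retained intron transcripts held 4.83% ± 0.194 of TPM with TAOK2 siRNA and 4.69% ± 0.256 with control siRNA (exact permutation p = 0.4, two-sided). Transcripts annotated for nonsense-mediated decay held 3.56% ± 0.0583 and 3.71% ± 0.170 (exact permutation p = 0.2), and mitochondrial mRNAs 10.3% ± 0.0966 and 9.73% ± 0.392 (exact permutation p = 0.1; adjusted over the 9 classes 0.75). With 3 libraries against 3 the smallest exact p is 0.1.

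The largest fall in TPM among called genes was that of an iron storage gene. FTL, the ferritin light chain at chr19:48965301-48966878, plus strand, had 4222, 3847 and 4039 TPM with TAOK2 siRNA, against 9073, 9205 and 8683 TPM with control siRNA. Its log2 change was -1.16 ± 0.07 (adjusted p = 2.24e-06), and the libraries of each group lay close together. FTH1, the heavy chain, had 5397, 4672 and 5183 TPM with TAOK2 siRNA, against 6647, 6359.7 and 6608 TPM with control siRNA (-0.37 ± 0.06, adjusted p = 0.00145); both ferritin genes have pseudogene copies. HMOX1, which frees iron from haem, had 28, 25.2 and 30.4 TPM with TAOK2 siRNA, against 94.4, 88.6 and 86.7 TPM with control siRNA (-1.66 ± 0.17, adjusted p = 7.24e-05). The zinc and iron importers of the same family moved in opposite directions. SLC39A14 had 39.5, 36.1 and 38.4 TPM with TAOK2 siRNA, against 91.6, 82.6 and 89.1 TPM with control siRNA (-1.19 ± 0.07, adjusted p = 1.09e-06). SLC39A8 had 38, 37.7 and 39.4 TPM with TAOK2 siRNA, against 22.5, 22.5 and 21.6 TPM with control siRNA (0.76 ± 0.11, adjusted p = 0.000826). Of 36 iron handling genes in all 2 were higher and 8 lower (5.56% and 22.2%, against 7.78% and 14.4% of all genes tested). Of 50 NRF2 targets and glutathione genes 7 were higher and 6 lower (14% and 12%, against 7.78% and 14.4% of all genes tested). MGST3, a microsomal glutathione transferase, averaged 186 ± 5.94 TPM with TAOK2 siRNA and 112 ± 3.23 TPM with control siRNA (SD, n = 3 each), a log2 change of 0.73 ± 0.06 (adjusted p = 1.47e-05). GPX4, which protects membranes from lipid peroxides, averaged 150.1 ± 4.60 TPM with TAOK2 siRNA and 217 ± 7.99 TPM with control siRNA (SD, n = 3 each; -0.53 ± 0.07, adjusted p = 0.000233).

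Cholesterol genes split. Of 36 tested members 5 were higher and 4 lower (13.9% and 11.1%), and called enzymes of the pathway moved apart. MSMO1, a sterol methyl oxidase, had 50.7, 48.6 and 46.7 TPM with TAOK2 siRNA, against 25.1, 27.1 and 27.1 TPM with control siRNA (0.86 ± 0.07, adjusted p = 1.15e-05). CYP51A1, which acts earlier in the pathway, had 43.1, 40.1 and 38.9 TPM with TAOK2 siRNA, against 56.3, 62.2 and 60.4 TPM with control siRNA (-0.54 ± 0.07, adjusted p = 0.000253). Of 44 glycolysis and hypoxia genes 7 were higher and 9 lower (15.9% and 20.5%, against 7.78% and 14.4% of all genes tested). Of 11 genes of the sodium pump and its FXYD regulators 4 were higher and 2 lower (36.4% and 18.2%). FXYD5, a regulator of the pump, had 157, 162 and 155 TPM with TAOK2 siRNA, against 107, 105 and 106 TPM with control siRNA (0.57 ± 0.07, adjusted p = 0.000201). FXYD2, of the same list, fell to 48.4, 14.1 and 18.7 TPM, against 154, 163 and 63.5 TPM (-2.27 ± 0.69, adjusted p = 0.0428). FXYD2 lost its call with median centring, GC centring or no filter. It was also lost without the TAOK2 siRNA library of batch B or C or the control library of batch A or B, where the adjusted p reached 0.141.

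Secreted signals and their receptors changed in both directions. Of 38 Wnt signalling genes 4 were higher and 8 lower (10.5% and 21.1%, against 7.78% and 14.4% of all genes tested). DKK1, a secreted inhibitor of Wnt receptors at chr10:52314296-52318042, plus strand, had 232, 239.5 and 210.0 TPM with TAOK2 siRNA, against 610.2, 614 and 532 TPM with control siRNA (-1.36 ± 0.13, adjusted p = 5.18e-05). RSPO3, a secreted amplifier of Wnt signals, had 13, 17.2 and 14.5 TPM with TAOK2 siRNA, against 56.9, 56.8 and 59.7 TPM with control siRNA (-1.89 ± 0.16, adjusted p = 2.09e-05). The ligand WNT7B had 45.1, 35.7 and 38.7 TPM with TAOK2 siRNA, against 90.2, 84.6 and 78.1 TPM with control siRNA (-1.07 ± 0.15, adjusted p = 0.000570). An inhibitor, an amplifier and a ligand of the pathway thus fell together. Of 41 growth factors and secreted hormones 6 were higher and 5 lower (14.6% and 12.2%), and 7 and 11 with the replicate block. ADM (adrenomedullin), a vasodilator peptide, had 33.6, 33.4 and 26.3 TPM with TAOK2 siRNA, against 74.5, 66.7 and 60.9 TPM with control siRNA (-1.10 ± 0.18, adjusted p = 0.00151).

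Of 25 coagulation and plasminogen genes 7 were higher and 3 lower (28% and 12%, against 7.78% and 14.4% of all genes tested). In every round with 1 library left out 6 of the rises held. PLAUR, the receptor of urokinase, had 60.9, 71.8 and 75 TPM with TAOK2 siRNA, against 32.1, 28.9 and 43.4 TPM with control siRNA (0.99 ± 0.14, adjusted p = 0.000676). TFPI2, a protease inhibitor of the matrix, had 284, 473 and 369 TPM with TAOK2 siRNA, against 135, 133 and 188 TPM with control siRNA (1.28 ± 0.21, adjusted p = 0.00200). The thrombin receptors moved apart. F2R (PAR1) had 11, 15.7 and 16.4 TPM with TAOK2 siRNA, against 31.7, 32.2 and 50.5 TPM with control siRNA (-1.33 ± 0.22, adjusted p = 0.00210). F2RL2 (PAR3) had 12.4, 11.5 and 12.8 TPM with TAOK2 siRNA, against 7.45, 6.99 and 6.05 TPM with control siRNA (0.76 ± 0.12, adjusted p = 0.00105). Of 10 tested genes of the aryl hydrocarbon receptor pathway 4 were lower (40%, against 14.4% of all genes tested). After median centring 2 of the 4 were still lower (20% of the list, against 10.6% of all genes). The receptor AHR had 18, 15.9 and 17.6 TPM with TAOK2 siRNA, against 30.3, 32.2 and 31.4 TPM with control siRNA (-0.83 ± 0.20, adjusted p = 0.0120).

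Membrane traffic beyond RAB1B was mixed. Of 45 Rab GTPases 7 were higher and 7 lower (15.6% and 15.6%, against 7.78% and 14.4% of all genes tested). Of 65 coat and tether genes of transport between the endoplasmic reticulum and the Golgi 2 were higher and 7 lower (3.08% and 10.8%). TRAPPC1, a subunit of the complex that activates RAB1, had 135, 146 and 146 TPM with TAOK2 siRNA, against 254, 258 and 259.8 TPM with control siRNA (-0.85 ± 0.07, adjusted p = 1.48e-05). Of 49 chaperones and folding enzymes of the endoplasmic reticulum 4 were higher and 5 lower, with DNAJB11, a partner of the chaperone BiP, at 52.6, 50.2 and 51.1 TPM with TAOK2 siRNA, against 90.8, 92.8 and 90.7 TPM with control siRNA (-0.82 ± 0.07, adjusted p = 2.02e-05). Of 39 tubulins and microtubule-binding proteins 4 were higher and 6 lower, and MAP1B, which stabilises microtubules, had 95, 93 and 103 TPM with TAOK2 siRNA, against 65.7, 54.9 and 60.5 TPM with control siRNA (0.68 ± 0.09, adjusted p = 0.000422). The shares were 8.16% and 10.2% for the chaperones and 10.3% and 15.4% for the tubulins. Of 55 lysosome and autophagy genes 6 were higher and 7 lower (10.9% and 12.7%), and of 40 apoptosis regulators 4 and 6 (10% and 15%). Of 37 YAP and TEAD pathway genes 3 and 3 were (8.11% and 8.11%). Of 34 TGF-beta genes 5 and 3 were (14.7% and 8.82%), and of 35 p53 pathway genes 1 and 6 (2.86% and 17.1%). The tubulin, lysosome and apoptosis shares lay near those of all genes tested on both sides. Those of the Rab, coat and tether, YAP, TGF-beta and p53 lists lay further from them on at least 1 side.

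Beyond the 10 largest rises, the next 15 among genes that averaged 5 TPM or more in these libraries had log2 changes of 1.07 to 1.24. Apart from CASP4, OAS1, HAS2, KRT19, COL4A3 and COL4A4, given above, they included the adhesion molecule L1CAM, with 7.74, 9.29 and 9.23 TPM with TAOK2 siRNA, against 3.37, 3.40 and 2.66 TPM with control siRNA (1.24 ± 0.14, adjusted p = 0.000144). OSBP2, an oxysterol-binding protein, had 54.9, 55.1 and 60.8 TPM with TAOK2 siRNA, against 26, 24 and 25.1 TPM with control siRNA (1.15 ± 0.16, adjusted p = 0.000570). CSF2RA, the alpha chain of the GM-CSF receptor, had 19.1, 20.9 and 18.6 TPM with TAOK2 siRNA, against 9.37, 8.37 and 8.25 TPM with control siRNA (1.09 ± 0.15, adjusted p = 0.000555). Transcription factors of the immediate early kind were among them. NR4A2 had 11.9, 12.4 and 11.8 TPM with TAOK2 siRNA, against 4.77, 5.26 and 5.51 TPM with control siRNA (1.08 ± 0.11, adjusted p = 5.18e-05), and KLF2 had 24.6, 21.7 and 25.9 TPM, against 9.40, 7.41 and 14.4 TPM (1.18 ± 0.19, adjusted p = 0.00135). Of 33 immediate early factors in all 4 were higher and 3 lower (12.1% and 9.09%, against 7.78% and 14.4% of all genes tested). C3orf52 had 8.60, 12 and 11.5 TPM with TAOK2 siRNA, against 4.09, 3.91 and 5.12 TPM with control siRNA (1.12 ± 0.24, adjusted p = 0.00688).

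The remaining 3 of the 15 rises are less certain. FST (follistatin), which binds and blocks activin, had 32, 38.9 and 40.6 TPM with TAOK2 siRNA, against 13.5, 13.4 and 23.5 TPM with control siRNA (1.14 ± 0.37, adjusted p = 0.0485), and the adjusted p reached 0.146 when any library but the control of batch C was left out. GABRA5, a subunit of the GABA receptor channel, had 77.4, 102 and 96.1 TPM with TAOK2 siRNA, against 39.1, 34.4 and 58.3 TPM with control siRNA (1.07 ± 0.27, adjusted p = 0.0167), and the adjusted p reached 0.0670 without the TAOK2 siRNA library of batch B or C or the control library of batch A or B. NPY4R, a receptor of pancreatic polypeptide, had 46.1, 67.2 and 40.8 TPM with TAOK2 siRNA, against 24.3, 23 and 22 TPM with control siRNA (1.09 ± 0.15, adjusted p = 0.000475), but the genome holds a near-identical copy, NPY4R2, so reads cannot be assigned to either with certainty.

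The 16 falls that rank from 10 to 25 had log2 changes of -1.24 to -1.36, and each kept its call under every alternative that was run. Besides DKK1, F2R, CCNE1, TOB1, DIS3 and FYTTD1, given above, they included GLIS3, a zinc finger transcription factor, which had 21, 20 and 19.6 TPM with TAOK2 siRNA, against 56.1, 52.7 and 50.1 TPM with control siRNA (-1.35 ± 0.15, adjusted p = 0.000118). TESC, a calcium-binding protein, had 57.6, 36.7 and 46.2 TPM with TAOK2 siRNA, against 128, 121 and 109 TPM with control siRNA (-1.36 ± 0.19, adjusted p = 0.000814). C19orf12, a membrane protein mutated in a form of neurodegeneration with brain iron accumulation, had 20.1, 21.9 and 21.7 TPM with TAOK2 siRNA, against 54.3, 50.4 and 57.9 TPM with control siRNA (-1.31 ± 0.10, adjusted p = 8.35e-06). ZDHHC20, a palmitoyltransferase, had 12.3, 12.2 and 11.8 TPM with TAOK2 siRNA, against 30.8, 29.8 and 29.6 TPM with control siRNA (-1.24 ± 0.07, adjusted p = 9.35e-07). DAPK1, a calmodulin-regulated kinase of cell death, had 39.8, 30.7 and 32.2 TPM with TAOK2 siRNA, against 97.3, 83.3 and 67.3 TPM with control siRNA (-1.24 ± 0.23, adjusted p = 0.00356). KCTD9 had 22.4, 24.1 and 25.7 TPM, against 57.7, 56.1 and 61.9 TPM (-1.25 ± 0.08), and OAF had 4.13, 4.86 and 4.24 TPM, against 12, 11.5 and 13.9 TPM (-1.31 ± 0.14). PADI2, which converts arginine in proteins to citrulline, had 4.84, 2.94 and 5.17 TPM, against 10.9, 10.2 and 13 TPM (-1.24 ± 0.28), and SAMD11 had 7.31, 12.1 and 6.51 TPM, against 26.8, 22.5 and 15.5 TPM (-1.24 ± 0.25).

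**Figure D3:**
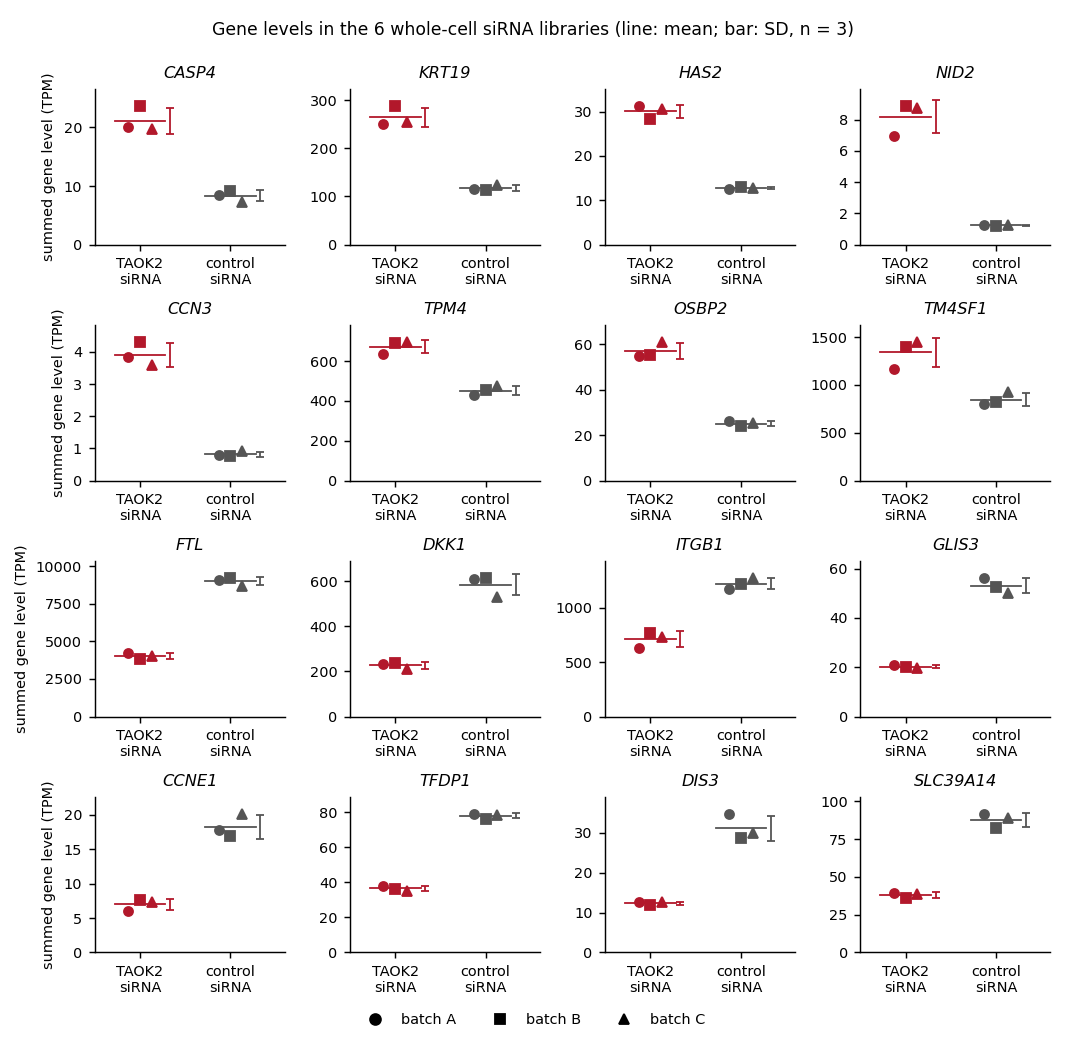
TPM of 16 genes in each library, TAOK2 siRNA left of control siRNA, with a point per batch, a line for the mean and a bar for the SD (n = 3 each). In every panel the points of the groups are apart, from CCN3, below 1 TPM in all control libraries, to FTL, at 3847 to 4222 TPM with TAOK2 siRNA and 8683 to 9205 TPM with control siRNA.

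When called genes were ranked by the difference in mean TPM, the largest falls after FTL included YWHAE, a phosphoserine-binding protein, with 529, 529 and 541 TPM with TAOK2 siRNA, against 877, 897 and 869 TPM with control siRNA (-0.72 ± 0.05, adjusted p = 2.85e-06). The largest rises included MTRNR2L12, with 10873, 12183 and 12738 TPM with TAOK2 siRNA, against 9552, 10584 and 10957 TPM with control siRNA (0.20 ± 0.06, adjusted p = 0.0410), a nuclear gene that resembles mitochondrial ribosomal RNA and whose level is therefore uncertain. The MTRNR2L12 groups overlapped, and its call was lost with GC centring, median centring, no filter or only the 6 siRNA libraries, without the TAOK2 siRNA library of batch B or C and without the control library of batch A or B, where the adjusted p reached 0.167. TM4SF1, a tetraspan membrane protein of tumour cells, had 1169, 1402 and 1448 TPM with TAOK2 siRNA, against 796, 819 and 926 TPM with control siRNA (0.66 ± 0.10, adjusted p = 0.00109). Of the 10 largest rises in TPM 4 lost their call in at least 1 alternative, as did 3 of the 10 largest falls.

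Markers of the line and of other cell types were read from the same libraries. Keratins of simple epithelia were abundant, with KRT18 at 3052 to 3345 TPM with TAOK2 siRNA and 2150.0 to 2230 TPM with control siRNA, whereas the surfactant genes SFTPA1, SFTPA2, SFTPB, SFTPC and SFTPD and the lung factor NKX2-1 were each below 1 TPM in every library. Of 12 tested lung epithelial markers 2 were called higher (16.7%), KRT19 and the surfactant lipid transporter ABCA3 (0.49 ± 0.10, adjusted p = 0.00443). KRT18, also on this list, was not called. The list summed to 8880.3 to 9819 TPM with TAOK2 siRNA and 6855 to 7006 TPM with control siRNA. KRT18 makes up a large part of this sum, which was not tested. Fibroblast and endothelial markers had 3 tested members and summed to 31.3 to 48.6 TPM with TAOK2 siRNA and 34.5 to 37.9 TPM with control siRNA. Leukocyte markers had 4 tested members and summed to 20.5 to 27.6 and 30.0 to 30.3 TPM, with CD3E, MS4A1 and FCGR3A at 0 in all 6 libraries. The part of other cell types in the changes was not tested beyond these sums.

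The share of called genes differed with gene structure. In genes of the top quintile by genomic span 11.6% were higher and 8.74% lower with TAOK2 siRNA, and in the bottom quintile 5.57% were higher and 16.6% lower. The median log2 difference of the top quintile minus that of the bottom quintile was 0.0783, 0.112 and 0.132 in batches A, B and C. Between libraries of the TAOK2 siRNA group it was 0.0310, 0.0484 and 0.0183 (B minus A, C minus A and C minus B), against -0.00839, 0.00472 and 0.00591 between control libraries, so libraries of the TAOK2 siRNA group differed along span as well. The GC content of the most abundant transcript showed a trend as well, with 9.73% higher and 11% lower in the bottom quintile and 4.96% higher and 18.5% lower in the highest. For GC the difference of top minus bottom quintile was -0.121, -0.0949 and -0.108 within batches. It was -0.0938, -0.156 and -0.0626 between libraries of the TAOK2 siRNA group and -0.115, -0.182 and -0.0713 between control libraries, so differences along GC of about this size were also found within groups. Span and GC are related across genes (Spearman rho -0.346 over 13096 genes, which are not independent).

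**Figure D4:**
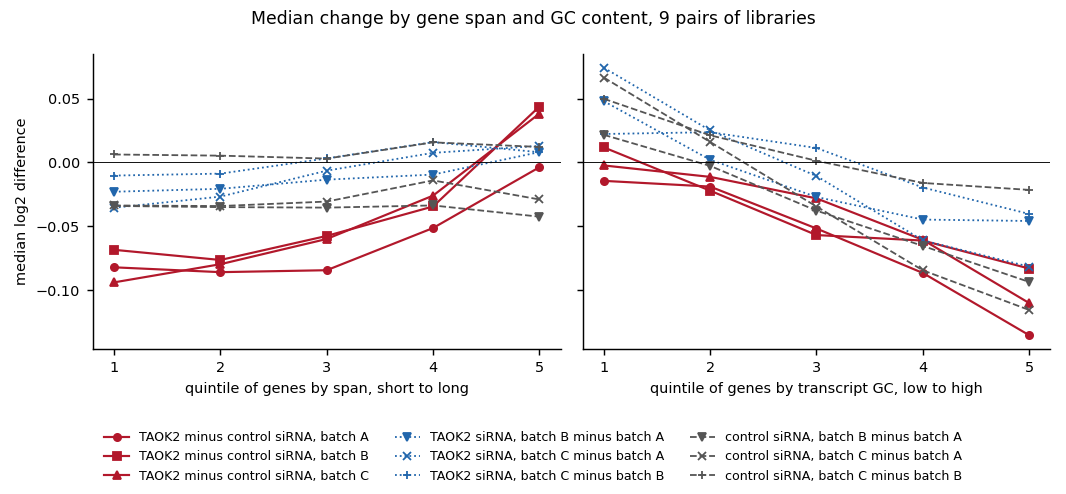
Median log2 difference by quintile of genomic span (left) and of GC content (right), for TAOK2 siRNA minus control siRNA in batches A, B and C, for pairs of TAOK2 siRNA libraries and for pairs of control libraries. The lines of TAOK2 siRNA minus control siRNA climb with span, those between TAOK2 siRNA libraries climb less and those between control libraries stay nearly flat, and all lines fall with GC.

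Total RNA of the fractionation experiment served as a second knockdown with other libraries. The same sign was found for 2020 of the 2816 called genes that were tested in both (71.7%), against 7510 of all 12429 genes tested in both (60.4%). Of genes called higher 764 of 992 (77%) and of those called lower 1256 of 1824 (68.9%) had the same sign. Of genes called at least 2-fold, 46 of 49 higher and 50 of 57 lower had the same sign (93.9% and 87.7%). No gene passed an adjusted p of 0.05 in total RNA by limma, with 917 of 13751 genes at an unadjusted p under 0.05 and a smallest adjusted p of 0.0524. Among lists that were mostly higher in whole cells, 12 of the 12 interferon-stimulated genes called higher, 15 of 16 actin genes, 12 of 13 integrin and focal adhesion genes, 8 of 8 other collagens and matrix glycoproteins, 7 of the 7 called epithelial junction genes tested in both and 7 of 10 basement membrane genes lay above 0 in total RNA. Lists with more falls than rises were not alike. Of their members called lower and tested in both, 34 of 38 mitochondrial ribosomal proteins, 8 of 8 tRNA synthetases, 9 of 9 amino acid genes, 8 of 8 iron genes, 11 of 12 respiratory chain genes and 10 of 12 mRNA export genes lay below 0. Below 0 also lay 21 of 32 ribosome biogenesis genes, 11 of 16 proteasome subunits and 8 of 12 nuclear RNA decay genes. So did 9 of 15 core spliceosome genes and 4 of 7 cytoplasmic decay genes, against 68.9% of all genes called lower. Fewer lay below 0 among translation factors (5 of 15), hnRNP proteins and splicing regulators (3 of 13) and heat shock proteins (3 of 12). The same held for homologous repair genes (4 of 14), cyclins and their kinases (3 of 10) and speckle and SR proteins (4 of 9). Cleavage and polyadenylation genes (2 of 7) and NF-kB genes (3 of 6) were also in this group. None of these shares was tested. Cytosolic ribosomal proteins did not keep their direction, with 7 of the 24 called higher above 0. The 31 genes ranked 11 to 25 higher and 10 to 25 lower included 30 tested in both, of which 11 of 14 higher and 15 of 16 lower had the same sign.

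**Figure D5:**
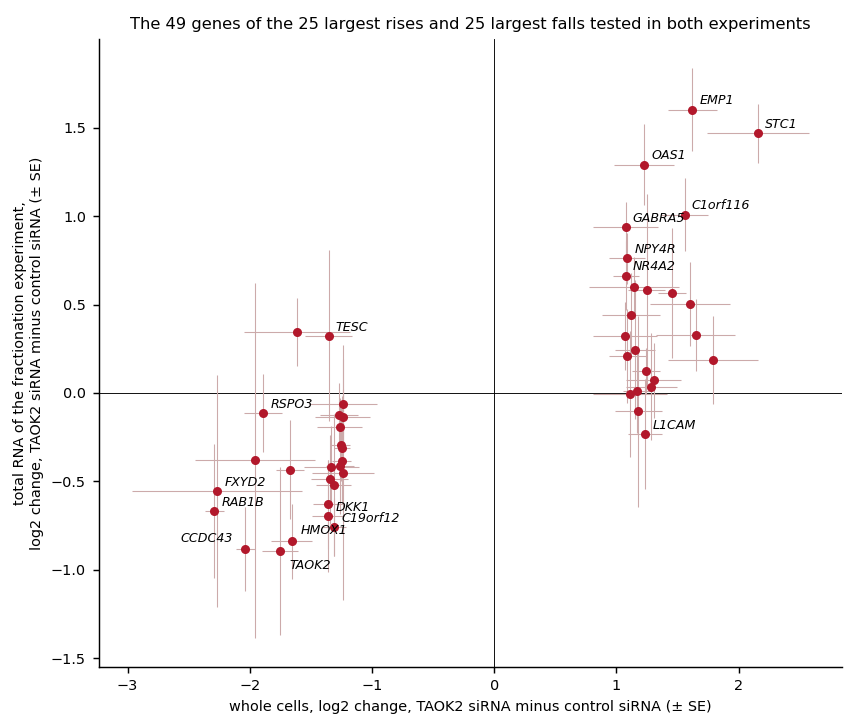
Log2 change with TAOK2 siRNA in whole cells (horizontal) and in total RNA of the fractionation experiment (vertical), each with its SE, for 49 of the 25 largest rises and 25 largest falls that were tested in both. Most points lie in the upper right and lower left, mostly with smaller changes in total RNA.

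The inhibitor of the kinase, compound 2, was compared with DMSO in the same whole-cell experiment, at a dose not given in the sources used here, and the difference between the 2 changes was tested in the same fit. Of the 15 rises ranked 11 to 25 the change differed for 14, all further in the knockdown direction, and compound 2 changes ranged from -1.55 to 0.12. Of the 16 falls ranked 10 to 25 the change differed for 11. Both sets were chosen for large knockdown changes in this same fit, which favours such a difference, so the counts do not test whether the responses differ. Values were not centred, and compound 2 minus DMSO lay below 0 in every span quintile, with medians of -0.174 to -0.388. How far that shift moves the counts was not tested. DKK1 was lower with compound 2 too (-1.48), as was C19orf12 (-1.11), and their differences of 0.12 ± 0.18 and -0.20 ± 0.14 (SE) did not pass the test (adjusted p = 0.606 and 0.240). For the adaptor TNS4 the changes were opposite, 0.75 ± 0.15 with TAOK2 siRNA and -3.24 with compound 2 (adjusted p of the difference = 9.82e-08), and MUC13 behaved likewise, at 0.83 ± 0.10 and -1.08 (adjusted p = 6.47e-07).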

How the data were processed

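Polyadenylated RNA with an integrity number above 6 was sequenced, per the labels' protocols. The deposited values are transcript TPM, which the authors computed with kallisto (version not given in the sources used here) on GRCh38.p14 transcripts, per the submitters' processing notes. They keep no read totals, so no counting interval can be given. Identifiers of 169797 of 188753 transcripts (90.0%) matched GENCODE 29, and their TPM was summed to 35579 genes. Genes whose mean over the 12 whole-cell libraries reached 1 TPM were tested on log2(TPM + 1) in R 4.3.3 by limma 3.58.1, with statmod 1.5.0, as group means over those 12 libraries, with trended and robust empirical Bayes moderation and Benjamini-Hochberg adjustment at 0.05. Fold changes on this scale understate changes of low genes. The code was tested on simulated data. Shares of transcript classes were tested with exact two-sided permutation tests.

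Named genes were the called genes that averaged 5 TPM or more, had the same sign in 3 batches and ranked among the 25 largest changes each way, the 10 largest changes in TPM each way, and up to 4 called members of each list with the smallest p; KRT18 and markers near 0 are given as marker checks. The members and lists were chosen with earlier results of these data known. Batch letters in the labels pair the libraries. On residuals after removing group means, the pairs correlated at 0.457, -0.175 and 0.454 for batches A, B and C, and the control library of batch B correlated at 0.361 with TAOK2 siRNA of batch A, so its pairing is doubtful. Alternatives were a replicate block, only the 6 siRNA libraries, a pseudocount of 0.1, no filter, a mean of at least 5 TPM, median centring, leaving out each library and, chosen after seeing the data, centring within 20 GC bins. Nuclear and cytoplasmic RNA were not used here. Some genes that the rule names are not reported here.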

Additional observations from a re-analysis of the deposited data

How the results depend on the processing

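Called genes numbered 2905 in all, against 3660 (1366 higher and 2294 lower) with batch as a replicate block, of which 2893 were shared, 2686 (1301 and 1385) with median-centred values and 2616 (1323 and 1293) with GC-centred values. They numbered 2765 with a pseudocount of 0.1, 2333 with no filter on low values, 2576 with a mean of at least 5 TPM and 4247 (1547 higher) with only the 6 siRNA libraries. Changes of at least 2-fold numbered 93 higher and 103 lower with a pseudocount of 0.1, and 34 higher with a mean of at least 5 TPM. The causes of these shifts were not tested. Leaving out 1 library at a time gave 586 to 795 genes higher and 1092 to 1475 lower, with 36 to 68 and 49 to 75 of at least 2-fold, from fewer samples in each fit. Of 264 named genes, the replicate block changed no call, GC centring lost 22, median centring 16, no filter 18, the pseudocount 3 and leaving out a library 13 to 30, and none changed direction. The share of called genes with the same sign in total RNA was 71.8% to 75.3% with 1 library left out. The differences of transcript class shares that changed sign lay at -0.000638 to 4.61e-05 percentage points for long noncoding, -0.00262 to 0.00112 for other, -0.176 to 0.00425 for processed transcripts and -0.112 to 0.0820 for pseudogenes. The reversals were found without the TAOK2 siRNA library of batch B (long noncoding and other), without the control library of batch A (other and processed transcripts) and without the control library of batch C (pseudogenes). Depth is known only as a stated minimum, so how it limits low genes was not assessed.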

Other observations

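Some genes that stood out in whole cells had far lower levels in total RNA of the fractionation experiment, although both come from A549 cells and the tables were normalized separately. KRT19 was listed at 0.557 and 0.360 TPM with TAOK2 siRNA and 0.125 and 0.364 TPM with control siRNA in total RNA, against 113 to 287 TPM over both groups of whole cells. KLF2 was listed at 1.2 and 0.281 TPM with TAOK2 siRNA and 1.22 and 0.465 TPM with control siRNA, and OSBP2 at 3.52 and 2.63 TPM, against 3.29 and 1.72 TPM. Cholesterol synthesis and uptake genes, split in whole cells with a median log2 change of 0.12, lay above 0 in total RNA for 34 of 36 members, with a median of 0.51. Amino acid synthesis and stress response genes lay below 0 in total RNA for 32 of 37 members, with a median of -0.59, against -0.18 in whole cells. The difference between the experiments was not tested.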
